A study of Homo sapiens with 36 samples.

Results

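Cells of the prostate cancer (PCa) line 22Rv1 were cultured alone with RANKL in 2 samples and alone without RANKL in 3 samples, and the RNA of these 5 samples, of 36 in the series, is compared here. The samples were chosen by their titles only, with no measured value. The series holds poly(A) RNA-seq of 4 human PCa lines, called osteolytic (DU145 and 22Rv1) or osteoblastic (C4-2 and C4-2B) by the study. Each line was grown in mono-culture without RANKL (n = 3), in mono-culture with RANKL (n = 2), next to MG63 cells without added RANKL (n = 2) and next to RAW264.7 cells with RANKL (n = 2).

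22Rv1 is a single established line derived from a human prostate carcinoma xenograft. The cells were kept in alpha-MEM with fetal bovine serum, and RNA was extracted after 5 days of culture. The titles mark the treated samples with the number 50 after RANKL, and the study's osteoclast assays used recombinant mouse soluble RANKL, a GST fusion, at 50 ng/mL. The source and unit are taken from those assays, and the time for which 22Rv1 cells were exposed to RANKL is not stated. MG63, a human osteosarcoma line, stood in for osteoblasts, RAW264.7 is a mouse monocytic line that forms osteoclasts with RANKL, and both were held in a separate well joined to that of the PCa cells by a horizontal co-culture device. The labels do not say whether the replicates of a group were separate cultures. Where they were not, the p-values below measure only a technical spread between these samples.

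RANKL, encoded by TNFSF11, is a cytokine of the tumour necrosis factor family made by osteoblast-lineage cells. It binds RANK, encoded by TNFRSF11A, which recruits TRAF adaptors and activates NF-kB, JNK, p38 and AKT, and the soluble decoy receptor osteoprotegerin, encoded by TNFRSF11B, binds RANKL and blocks it. In bone, RANKL drives the formation of osteoclasts, and RANK has also been found on some epithelial cancer cells.

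Levels are given as TPM (a share of all transcripts), the deposited value of a gene scaled to a library total of 1000000, a scale that corrects for transcript length. Library totals were 23932472 to 32262316 in mono-culture without RANKL and 10097501 to 11018229 with RANKL, so the RANKL side was shallower by a factor of 2.57 and depth cannot be told apart from RANKL in this contrast. A floor of 3 counts lay at up to 0.125 TPM in the mono-cultures and up to 0.297 TPM with RANKL. Counts here are per transcript length, so a floor is not a set number of reads and serves as a guide only. The MG63 co-cultures of 22Rv1 (11776862 to 15132736) were closer in depth to the RANKL samples and contained no added RANKL. They are used below as a further control, although they differ from mono-culture in MG63 as well as in depth, and both contrasts share the 2 RANKL libraries. Log levels of the 2 RANKL samples correlated with each other at 0.986 across genes and with the mono-cultures at 0.969 to 0.971, where genes are not independent replicates.

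Prostate epithelial markers were expressed in all 5 libraries, which does not tell 22Rv1 from the other prostate lines. These 14 genes summed to 2254 to 2373 TPM in the mono-cultures and 2285 to 2351 TPM with RANKL, with 4 (28.6%) higher and 3 (21.4%) lower at an adjusted p under 0.05, beside 10.6% and 9.18% of all genes tested. Markers of MG63 and mesenchyme (14 genes, 3 tested, none called) summed to 49.0 to 52.8 TPM without and 48.7 to 53 TPM with RANKL, and to 67.5 and 69.3 TPM in the MG63 co-cultures used as a further control, and their part in the values against that control was not tested. Of the 14, 3 stayed at 3 counts or fewer in all 5 libraries, POSTN at 0 among them, and the others did not. The 14 macrophage and osteoclast markers (1 tested, not called) summed to 13.9 to 15.2 TPM and 14 to 15.8 TPM. Among these, 4 stayed at 3 counts or fewer in all 5 libraries, TYROBP at 0 included, and the others did not. In bulk RNA, fewer cells of a type and less RNA per cell cannot be told apart.

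FABP7, REG4 and PRSS23 were among the genes that rose most with RANKL, BMP5, EPHA4 and SNAI2 were among those that fell most, and most of the tested cholesterol synthesis genes rose by a smaller factor. Of 11685 genes with at least 100 counts in 1 or more of the 5 libraries, 1241 (10.6%) were higher and 1073 (9.18%) lower with RANKL at an adjusted p under 0.05, by the quasi-likelihood test of edgeR, adjusted over all genes tested by the Benjamini-Hochberg method. Among them 106 (0.907%) rose and 81 (0.693%) fell by at least 2-fold. With library size as the only scaling the split was 959 higher (8.21%) and 1425 lower (12.2%). The 2 groups did not overlap in 2700 genes (23.1%) that were higher and 4030 (34.5%) that were lower with RANKL. Without RANKL replicate 1 the counts at adjusted p were 797 (6.82%) and 626 (5.36%), and without RANKL replicate 2 they were 626 (5.36%) and 505 (4.32%). Without mono-culture replicate 1, 2 or 3, in this order, 8.37%, 8.79% and 8.55% of genes were higher and 7.14%, 7.62% and 7.15% lower. These shares are the background of the list counts below that leave out a library. In the DU145 co-cultures with MG63, replicate 2 stood apart from replicate 1 (chi-square of their counts 106 per degree of freedom, beside 2.95 to 6.26 in all other replicate pairs). It shares the estimate of the spread, and without it 2001 genes (17.1%) were higher and 1698 (14.5%) lower. Adjusted p-values below come from this test. The standard error (SE) beside a log2 difference is not fitted but derived, as its absolute value divided by the square root of the F statistic of the test.

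**Figure D1:**
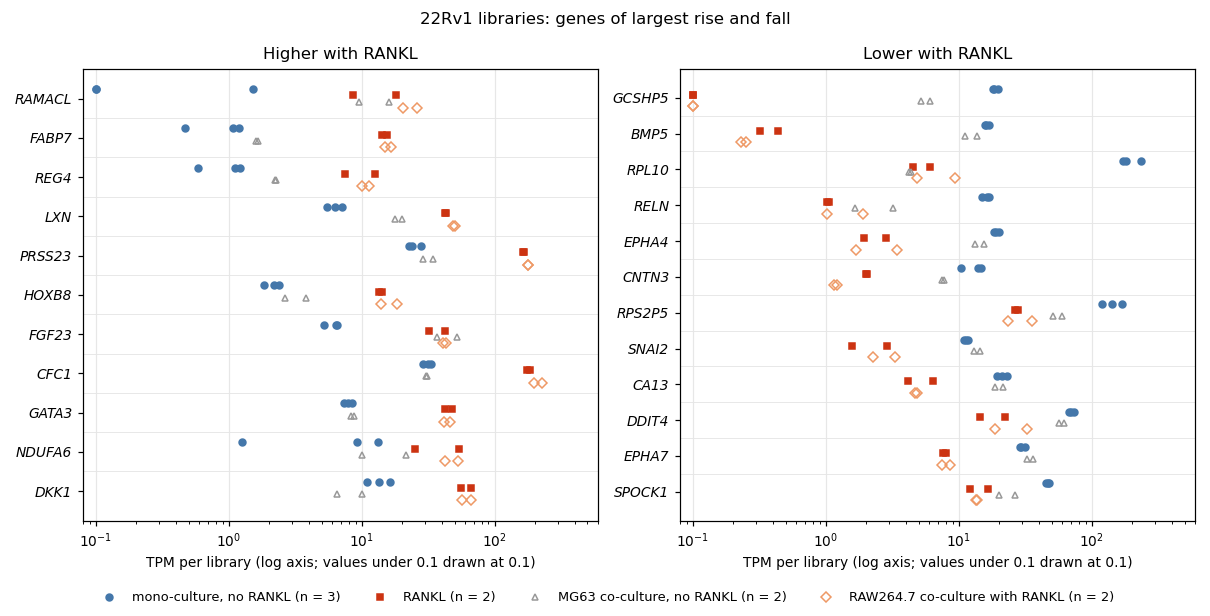
TPM on a log axis of genes with the largest rise (left, 11 genes) and the largest fall (right, 12 genes) in each 22Rv1 library. Filled circles are mono-cultures (n = 3), filled squares RANKL (n = 2), open triangles MG63 co-cultures without added RANKL (n = 2) and open diamonds RAW264.7 co-cultures with RANKL (n = 2). Values under 0.1 TPM are drawn at 0.1. As the naming rule requires, no gene shows an overlap between mono-culture and RANKL, and for FGF23, RAMACL, RPL10 and RELN the MG63 libraries sit near the RANKL libraries.

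FABP7, an intracellular fatty acid binding protein, was at 1.19, 1.08 and 0.473 TPM in mono-cultures 1 to 3 and at 15.6 and 14.3 TPM with RANKL (log2 difference 4.09, SE 0.32, adjusted p = 1.74e-09). It stayed low in the MG63 co-cultures, at 1.65 and 1.62 TPM, and was high in the RAW264.7 co-cultures that contained RANKL, at 15.0 and 16.5 TPM.

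REG4, a secreted lectin-like protein, was at 0.592, 1.21 and 1.12 TPM in the mono-cultures and at 7.56 and 12.6 TPM with RANKL (log2 difference 3.40, SE 0.40, adjusted p = 1.58e-06). PRSS23, a secreted serine protease, went from 27.9, 22.6 and 23.8 TPM to 164 and 167 TPM (log2 difference 2.79, SE 0.18, adjusted p = 9.36e-11). LXN, an inhibitor of carboxypeptidases, went from 5.50, 7.06 and 6.26 TPM to 43.3 and 42 TPM (log2 difference 2.81, adjusted p = 2.08e-08). The groups were separate for all of these genes, and LXN was intermediate in the MG63 co-cultures, at 20.1 and 18 TPM.

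DKK1, a secreted WNT antagonist that restrains bone formation, was at 11, 13.6 and 16.4 TPM in mono-culture and at 56.2 and 65.9 TPM with RANKL (log2 difference 2.20, SE 0.18, adjusted p = 1.37e-08). It was lower in the MG63 co-cultures, at 6.58 and 10.0 TPM, so that both RANKL samples lay above all 5 samples without added RANKL. CFC1, a co-receptor for the TGF-beta family ligand Nodal, stood at 29, 31.6 and 33.5 TPM against 186 and 176 TPM (log2 difference 2.57, adjusted p = 1.89e-11). GATA3, a regulator of luminal epithelial and lymphoid fates, was at 7.40, 7.84 and 8.44 TPM against 42.6 and 47.9 TPM (log2 difference 2.56, adjusted p = 1.5e-08), and HOXB8, a homeobox factor, at 1.85 to 2.40 TPM against 13.4 and 14.2 TPM.

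BMP5, a bone morphogenetic protein, was at 16.1, 15.6 and 16.9 TPM in mono-culture and at 0.433 and 0.317 TPM with RANKL (log2 difference -5.54, SE 0.35, adjusted p = 1.16e-07), while the MG63 co-cultures kept 13.7 and 11.2 TPM. EPHA4 and EPHA7, Eph receptor tyrosine kinases, fell by 3.0 and 1.88 on the log2 scale (adjusted p = 4.82e-06 and 2.47e-07). EPHA4 was at 18.3, 20.2 and 19.2 TPM against 2.82 and 1.92 TPM, and EPHA7 at 31.3, 29.3 and 28.8 TPM against 7.98 and 7.64 TPM. The groups did not overlap, and neither gene was reduced to these levels with MG63, where EPHA4 stood at 15.5 and 13.2 TPM and EPHA7 at 35.9 and 32.5 TPM.

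SNAI2, a transcription factor of the epithelial-mesenchymal transition, fell from 10.9, 11.4 and 11.7 TPM to 2.90 and 1.58 TPM (log2 difference -2.33, SE 0.22, adjusted p = 2.87e-08). DDIT4, an inhibitor of mTORC1 signalling that is induced by stress, fell from 67.0, 73.8 and 69.5 TPM to 22.2 and 14.4 TPM (log2 difference -1.90, adjusted p = 2.01e-07). The remaining large falls were CNTN3, a neural adhesion molecule (log2 difference -2.63), CA13, a cytosolic carbonic anhydrase (-1.95), and SPOCK1, an extracellular proteoglycan (-1.65). In CNTN3, CA13 and SPOCK1 every RANKL value lay below every value of the mono-cultures and of the MG63 co-cultures.

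Some of the largest differences were also found in co-cultures that had no added RANKL. FGF23, the phosphate-regulating hormone of bone, was at 6.53, 6.41 and 5.18 TPM in mono-culture, at 42 and 32.1 TPM with RANKL (log2 difference 2.67, adjusted p = 4.99e-09) and at 36.6 and 52.0 TPM with MG63. Against the MG63 co-cultures its log2 difference was -0.31 (adjusted p = 0.396). RELN, the secreted guidance protein reelin, fell from 16.2, 17.0 and 14.8 TPM to 1.05 and 1.02 TPM (log2 difference -3.89, adjusted p = 1.94e-07), with 3.18 and 1.65 TPM beside MG63 (log2 difference from these -1.28, adjusted p = 0.0712).

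Among the largest differences were genes that share sequence with near-identical copies, whose levels are uncertain because reads may be divided among the copies. RPL10, a ribosomal protein gene with many pseudogenes, was at 182, 171 and 234 TPM against 4.55 and 6.08 TPM with RANKL (log2 difference -5.15) and at 4.25 and 4.38 TPM with MG63. RAMACL, a copy of the mRNA cap methylation cofactor gene RAMAC, was at 0, 1.51 and 0.00023 TPM against 8.66 and 18.1 TPM (log2 difference 4.93, or 4.23 to 10.9 in fits without 1 of the 5 libraries, the highest without mono-culture replicate 2), and at 9.52 and 16.2 TPM with MG63. Since counts are per transcript length, no bound on the fold is given for GCSHP5, a processed pseudogene. It was at 19.6, 18 and 18.4 TPM in mono-culture and at 0 in both RANKL libraries. It had an adjusted p of 0.0297, which rose to 0.147 without RANKL replicate 1 and to 0.172 without RANKL replicate 2. RPS2P5, another ribosomal pseudogene, fell by 2.35 on the log2 scale. NDUFA6, a complex I subunit, had a log2 difference of 2.34 (adjusted p = 0.00342), or 1.67 to 2.97 in fits without 1 of the 5 libraries. Neither GCSHP5 nor NDUFA6 passed the test against MG63.

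Transcripts of RANK itself were scarce in 22Rv1. TNFRSF11A was at 0.325, 0.702 and 0.487 TPM in mono-culture and at 0.959 and 1.37 TPM with RANKL, the lowest level in mono-culture among the 4 lines (C4-2B 1.24 to 1.5, C4-2 1.53 to 2.08 and DU145 2.35 to 3.02 TPM). TNFSF11 was at 0.143 TPM or less in mono-culture and at 0 in both RANKL libraries, where the floor of 3 counts lay at up to 0.297 TPM. TNFRSF11B, the decoy receptor, was at 0.728, 0.674 and 0.797 TPM in mono-culture, 2.87 and 2.33 TPM with RANKL, 2.28 and 2.00 TPM with MG63 and 1.78 and 2.72 TPM with RAW264.7. None of these 3 genes reached 100 counts in any of the 5 libraries, so none was tested. For TNFRSF11A the 2 groups were separate but the RAW264.7 co-cultures, at 0.293 and 1.14 TPM, spanned both.

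**Figure D2:**
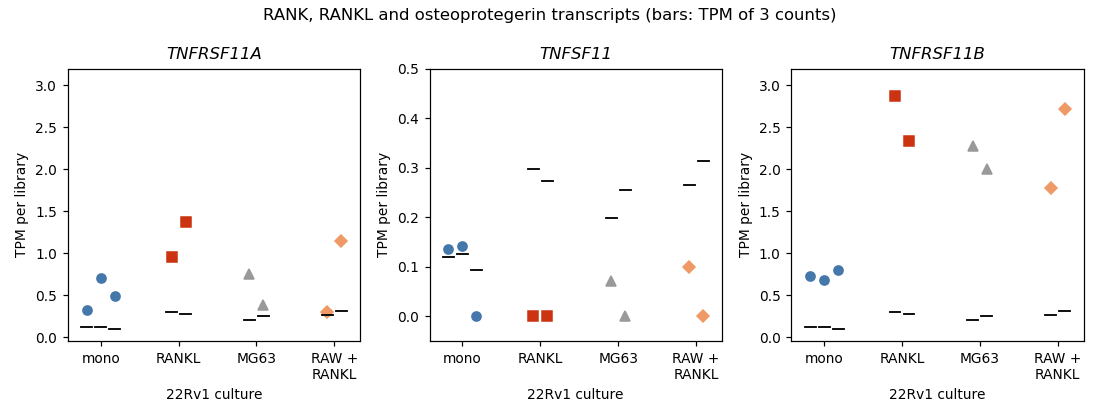
TPM of TNFRSF11A (RANK), TNFSF11 (RANKL) and TNFRSF11B (osteoprotegerin) in each 22Rv1 library, by culture (mono n = 3, RANKL n = 2, MG63 n = 2, RAW264.7 with RANKL n = 2). Short black bars give the TPM of 3 counts in that library. TNFRSF11A stays under 1.4 TPM, TNFSF11 lies at or under the floor or just above it, and TNFRSF11B is above 1.7 TPM in all 6 libraries that are not mono-culture without RANKL.

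Of 36 listed genes of the RANK pathway, the receptor, its adaptors, kinases and transcription factors included, 28 were tested, and 3 were higher and 3 lower, beside 10.6% and 9.18% of all genes, with a median log2 difference of 0.02 (all genes tested -0.00). GAB2, a scaffold adaptor of RANK, rose from 8.74, 8.03 and 7.25 TPM to 15.8 and 17.0 TPM (log2 difference 1.08, SE 0.12, adjusted p = 4.90e-07). NFKB2, the p100 precursor of the non-canonical NF-kB pathway, fell from 98.1, 97.3 and 95.2 TPM to 55.7 TPM in both RANKL libraries (log2 difference -0.75, SE 0.09, adjusted p = 1.26e-06). Both genes stood apart from the MG63 co-cultures too, where GAB2 was at 7.92 and 6.36 TPM and NFKB2 at 95.1 and 91.4 TPM.

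The other calls in the RANK pathway were the kinases AKT1 (log2 difference 0.34) and MAP2K7 (0.19), which were higher, and MAPK8, encoding JNK1 (-0.48), and TAB2, an adaptor of the TAK1 kinase (-1.23), which were lower. TAB2 had a log2 difference of -2.31 without RANKL replicate 1 and -0.58 without RANKL replicate 2, and its call was lost in the latter fit (adjusted p = 0.431), without mono-culture replicate 1 or 3 (0.0637 and 0.0545) and in a fit of the 5 libraries alone (0.0706). MAPK8 ranged from -0.71 without RANKL replicate 1 to -0.27 without RANKL replicate 2, where its call was lost (0.192), as it was with recovered reads (0.13). The call of AKT1 was lost without RANKL replicate 1 or 2 (0.0536 and 0.155) and without mono-culture replicate 3 (0.0607). That of MAP2K7 was lost without either RANKL replicate (0.064 and 0.205) or mono-culture replicate 1 or 2 (0.0975 and 0.0683), with library size as the only scaling (0.0856), with no minimum count (0.127) and in the fit of 5 libraries (0.0765). MAP2K7 and TAB2 were named after their values were seen. Without RANKL replicate 1, 1 gene of the pathway was higher, and without RANKL replicate 2, 1 was higher and 1 lower. Without DU145 MG63 replicate 2, 4 were higher and 5 lower, beside 17.1% and 14.5% of all genes in that fit. Against MG63 none of AKT1, MAP2K7, MAPK8 and TAB2 passed the test, and MAPK8 and AKT1 turned in sign (0.09 and -0.06). TRAF6, the adaptor that links RANK to NF-kB, was at 6.59 to 8.10 TPM without and 6.93 and 8.27 TPM with RANKL (log2 difference 0.08, adjusted p = 0.767).

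Of 44 listed transcriptional targets of NF-kB, 19 were tested, and 3 (15.8%) were higher and 1 (5.26%) lower, beside 10.6% and 9.18% of all genes (median log2 difference 0.15). Against MG63 2 were higher and 3 lower (median -0.06), beside 8.77% and 8.09% of all genes. In a fit to recovered reads 20 were tested, with 3 higher and 3 lower, beside 1635 and 1566 of all 11915 genes. Without RANKL replicate 2, 2 were higher and none lower, and without DU145 MG63 replicate 2, 5 and 2, beside 17.1% and 14.5% of all genes in the latter fit. In 22Rv1, all 14 cytokines and chemokines of the list stayed under 100 counts. NFKBIA, the inhibitor that NF-kB itself induces, was at 76.6, 77.9 and 83.7 TPM without RANKL and at 77 and 90.2 TPM with it (log2 difference 0.12, SE 0.09, adjusted p = 0.378), and the groups overlapped. The called genes were SDC4, the heparan sulfate proteoglycan syndecan-4 (15.6 to 16.6 TPM against 30.2 and 33 TPM, log2 difference 1.02, adjusted p = 1.70e-10), CD44, a hyaluronan receptor (0.65), TNIP1, an NF-kB feedback inhibitor (0.45), and GADD45B, a stress sensor, which was lower (-0.75). Without RANKL replicate 2 the calls of CD44 and GADD45B were lost (adjusted p = 0.089 and 0.124). Among 20 immediate early genes tested, 4 (20%) were higher and 1 (5%) lower, beside the same shares of all genes, with 2 higher without RANKL replicate 2 and 8 higher and 2 lower without DU145 MG63 replicate 2. JUND, an AP-1 subunit, rose from 74.1, 79.5 and 83.3 TPM to 142 and 149 TPM (log2 difference 0.93, adjusted p = 2.64e-07), and BTG2, an antiproliferative factor, fell by 0.58 on the log2 scale.

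Calls among lipid synthesis genes were in a single direction. Of 26 cholesterol genes tested, 21 were higher with RANKL and none lower (median log2 difference 0.51), and of 11 fatty acid genes 7 were higher and none lower (0.47), beside 10.6% of all genes tested. Against the MG63 co-cultures the counts were 21 and 0 for cholesterol (median 0.77) and 8 and 0 for fatty acids (0.55), beside 8.77% higher and 8.09% lower of all genes. No member of either list passed the test in the lower direction with either control, and the number of cholesterol genes called higher was 15 to 22 over the other ways of processing the data.

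FDFT1, squalene synthase, went from 322, 321 and 319 TPM in mono-culture to 529 and 481 TPM with RANKL (log2 difference 0.70, SE 0.06, adjusted p = 1.26e-08). STARD4, a sterol carrier, went from 24.7, 24.5 and 23.3 TPM to 53.3 and 43.9 TPM (log2 difference 1.05, SE 0.09, adjusted p = 1.43e-08). The groups did not overlap for either gene. In the MG63 co-cultures FDFT1 was at 240 and 246 TPM and STARD4 at 16.7 and 16.3 TPM. LSS, which closes the sterol rings, was at 59.2, 56.2 and 58.3 TPM without and 104 and 87.7 TPM with RANKL (log2 difference 0.77, adjusted p = 5.38e-07).

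SCD and FADS2 had the largest differences of the tested fatty acid genes. SCD, which makes monounsaturated fatty acids, rose from 134, 141 and 135 TPM to 418 and 324 TPM (log2 difference 1.48, SE 0.14, adjusted p = 4.22e-08). FADS2, the delta-6 desaturase, rose from 36, 33.6 and 37.5 TPM to 82.4 and 72.1 TPM (log2 difference 1.16, SE 0.08, adjusted p = 7.86e-11), and FADS1, its delta-5 partner, by 0.64. FASN, the fatty acid synthase, rose from 193, 200 and 192 TPM to 309 and 291 TPM (log2 difference 0.67, adjusted p = 2.02e-06). In the RAW264.7 co-cultures, which held RANKL, SCD was at 388 and 329 TPM and FADS2 at 83.1 and 74.7 TPM, and in the MG63 co-cultures SCD was at 85.8 and 79.8 TPM and FADS2 at 27.5 and 26.4 TPM.

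**Figure D3:**
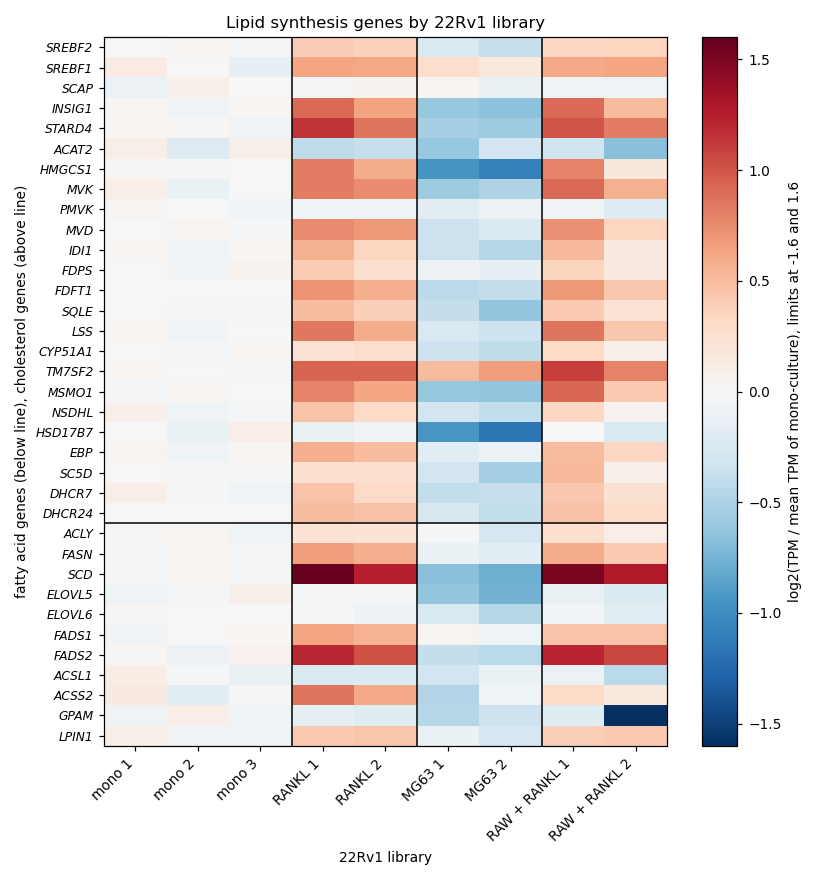
Tested cholesterol genes (above the line) and fatty acid genes (below the line) in each of 9 22Rv1 libraries, coloured by the log2 ratio of its TPM to the mean TPM of the 3 mono-cultures, with colours limited at -1.6 and 1.6. RANKL libraries and RAW264.7 libraries with RANKL are red for most genes, and MG63 libraries are blue for most cholesterol genes, as for STARD4 at 16.3 and 16.7 TPM.

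SREBF2 encodes the transcription factor that senses low sterol and switches on cholesterol genes through sterol regulatory elements. It was at 121, 124 and 119 TPM without and 159 and 157 TPM with RANKL (log2 difference 0.42, SE 0.11, adjusted p = 0.00615, and 0.0573 without RANKL replicate 1). A classical form of this element, searched as TCACNCCAC on both strands, was in 313 of 27305 RefSeq promoter windows (1.15%), each from 250 bases before to 50 after a gene's start. It was in 1 of 20 cholesterol genes that had a window (5%) and in 0 of 12 fatty acid genes. The window with the match, that of SREBF2 on GRCh38.p14 (chr22:41832855-41833154, plus strand), is shown with the element in capitals, its first base 133 before the start.
SREBF2: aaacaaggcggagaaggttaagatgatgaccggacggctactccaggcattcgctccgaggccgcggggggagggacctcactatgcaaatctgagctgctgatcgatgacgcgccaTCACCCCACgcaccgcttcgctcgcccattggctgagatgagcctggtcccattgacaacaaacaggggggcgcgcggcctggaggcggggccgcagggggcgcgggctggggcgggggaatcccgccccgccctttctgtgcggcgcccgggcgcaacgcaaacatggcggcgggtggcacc

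Calls among chaperones of the endoplasmic reticulum were higher too. Of 22 unfolded protein response genes tested 8 (36.4%) were higher and none lower (median log2 difference 0.21), beside 10.6% and 9.18% of all genes, and against MG63 18 were higher and none lower (0.71), beside 8.77% and 8.09%. The first count was 4 without RANKL replicate 2 and 14 without DU145 MG63 replicate 2, where 17.1% of all genes were higher. HSPA5, the chaperone BiP, was at 628, 611 and 659 TPM in mono-culture and 849 and 856 TPM with RANKL (log2 difference 0.47, adjusted p = 7.52e-06). PDIA4, a disulfide isomerase, went from 404, 408 and 413 TPM to 540 and 577 TPM (log2 difference 0.50, adjusted p = 1.71e-07). HSPA5 was at 936 and 851 TPM in the RAW264.7 co-cultures and at 333 and 313 TPM in the MG63 co-cultures, which lay below mono-culture.

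Calls in the amino acid response driven by ATF4 depended on the control. Relative to mono-culture 15 of 27 genes tested were lower and 1 higher (median log2 difference -0.32), beside 9.18% and 10.6% of all genes. Relative to the MG63 co-cultures 13 were higher and 1 lower (0.31), beside 8.77% and 8.09%. The 1 higher call was lost without mono-culture replicate 2 or 3 and without RANKL replicate 2. ASNS, asparagine synthetase, was at 306, 282 and 309 TPM in mono-culture, 155 and 171 TPM with RANKL and 120 and 122 TPM with MG63 (log2 difference from mono-culture -0.83, adjusted p = 3.56e-08, and from MG63 0.37, adjusted p = 0.00352). ATF4 itself was at 650, 609 and 633 TPM, 538 and 518 TPM, and 321 and 320 TPM in the same order. RANKL samples therefore lay between the mono-cultures and the MG63 co-cultures for both genes.

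MTHFD2 and PSAT1, enzymes of one-carbon and serine synthesis, were lower than in mono-culture by 0.54 and 0.53 on the log2 scale, and higher than with MG63 by 0.19 and 0.24. ATF4 binds composite C/EBP-ATF elements, searched here as TGATGNAAN on both strands with N as any base. The letters were in 5 of 24 ATF4-list promoters (20.8%), beside 1002 of all 27305 (3.67%). The 3 matched windows of genes that were tested are shown to place the element, in capitals, which may lie on either strand. Its first base is 68 before the start in ASNS (chr7:97872359-97872658, minus strand), at 37 after it in SLC3A2 (chr11:62881449-62881748, plus strand) and at 8 after it in SLC7A1 (chr13:29595639-29595938, minus strand), all on GRCh38.p14 from RefSeq.
ASNS: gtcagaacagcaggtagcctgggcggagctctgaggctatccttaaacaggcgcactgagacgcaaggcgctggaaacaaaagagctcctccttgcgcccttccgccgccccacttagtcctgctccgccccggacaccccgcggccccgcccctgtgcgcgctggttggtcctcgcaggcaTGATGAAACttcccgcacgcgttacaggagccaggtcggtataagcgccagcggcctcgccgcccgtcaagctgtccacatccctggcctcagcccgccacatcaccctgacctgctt
SLC3A2: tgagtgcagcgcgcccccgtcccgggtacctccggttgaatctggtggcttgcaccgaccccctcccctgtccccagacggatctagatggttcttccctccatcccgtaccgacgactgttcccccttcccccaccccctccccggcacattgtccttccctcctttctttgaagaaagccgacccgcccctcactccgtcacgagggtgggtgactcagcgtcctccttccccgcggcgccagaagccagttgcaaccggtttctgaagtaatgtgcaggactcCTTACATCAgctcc
SLC7A1: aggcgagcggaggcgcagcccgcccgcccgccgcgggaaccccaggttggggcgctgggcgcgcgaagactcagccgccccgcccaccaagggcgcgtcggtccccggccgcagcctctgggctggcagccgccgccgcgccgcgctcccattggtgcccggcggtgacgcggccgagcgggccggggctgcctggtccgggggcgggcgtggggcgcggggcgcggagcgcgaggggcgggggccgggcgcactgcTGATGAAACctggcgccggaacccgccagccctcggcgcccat

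SLC3A2 and SLC7A1, amino acid transporter subunits named for these matches, were at 170 to 178 TPM and 52.1 to 54.8 TPM in mono-culture. With RANKL they were at 127 and 131 TPM and at 39.8 and 43.0 TPM, lower by 0.38 and 0.32 on the log2 scale (adjusted p = 0.000796 and 0.0356). The SLC7A1 call was lost in each fit without 1 of the 5 libraries (0.0525 to 0.22). In the MG63 co-cultures they stood lower still, at 82.6 and 92.5 TPM and at 30.9 and 28.1 TPM.

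**Figure D4:**
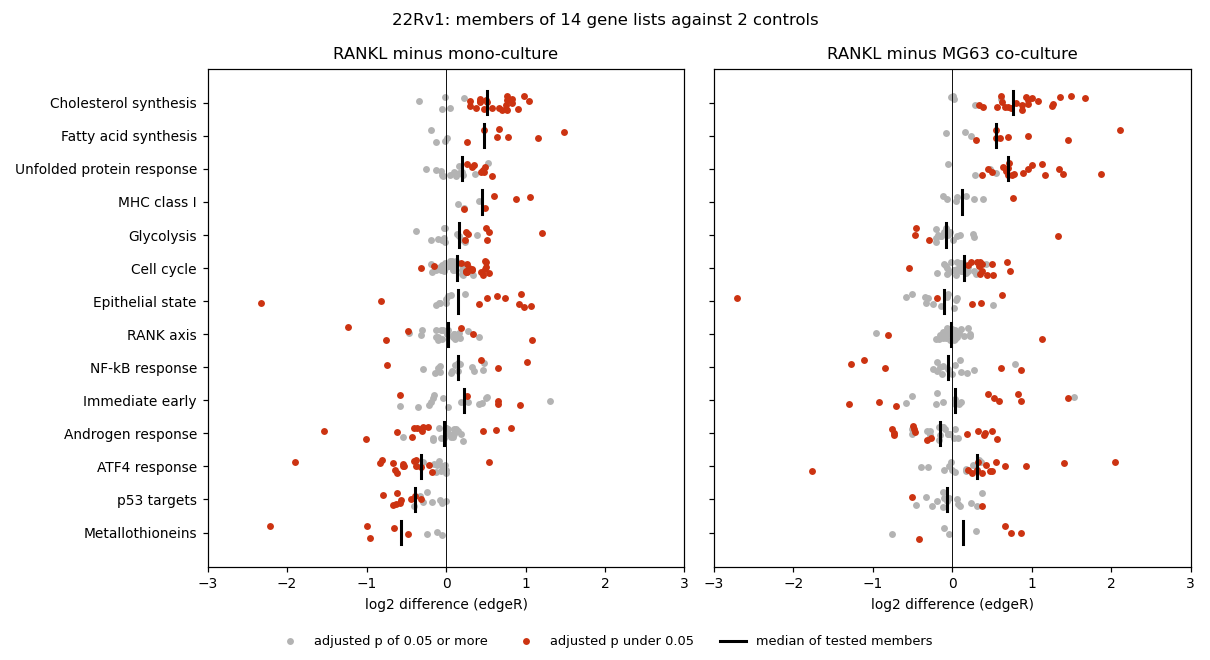
Log2 difference of each tested member of 14 gene lists in 22Rv1, RANKL minus mono-culture (left) and RANKL minus MG63 co-culture (right). Red points have an adjusted p under 0.05, grey points do not, and black bars are list medians. Cholesterol genes lie to the right in both panels (medians 0.51 and 0.77), while the ATF4 list lies to the left in one panel and to the right in the other (-0.32 and 0.31).

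Other lists also read differently with the MG63 control. Of 17 p53 targets tested, 9 were lower and none higher than in mono-culture (median -0.40), beside 9.18% and 10.6% of all genes, and 1 was lower and 1 higher than with MG63 (-0.07), beside 8.09% and 8.77%. TNFRSF10B, the death receptor DR5, was the one that stayed lower, at 55.4 to 58.9 TPM, then 32.0 and 31.5 TPM with RANKL and 43.9 and 42.6 TPM with MG63 (log2 difference from mono-culture -0.79, from MG63 -0.51). Metallothionein and zinc genes had 5 of 8 lower and none higher (median -0.56), and 1 lower and 3 higher against MG63 (0.13), beside the same shares. MT1X, a zinc-binding metallothionein of a family with similar sequences, was at 131 to 161 TPM, then 74.0 and 64.7 TPM with RANKL and 44.2 and 39.7 TPM with MG63.

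Of 8 tested genes of MHC class I presentation 5 were higher than in mono-culture (median 0.45), beside 10.6% of all genes, and 1 was higher than with MG63, beside 8.77%. HLA-E was at 11.4, 12.1 and 11.9 TPM in mono-culture, 16.8 and 18.1 TPM with RANKL and 17.5 and 19.0 TPM with MG63, and HLA genes share reads among alleles and paralogs. In a fit to recovered reads 4 of these genes were tested and none was called. Of 21 glycolysis genes 7 (33.3%) were higher and none lower (median 0.16), beside 10.6% and 9.18% of all genes, against 1 higher and 3 lower with MG63 as the control. Without RANKL replicate 1, 3 were higher. The one that held with both was SLC2A1, the glucose transporter GLUT1, at 41.0, 46.2 and 41.7 TPM in mono-culture, 98.1 and 95.0 TPM with RANKL and 36.1 and 37.9 TPM with MG63 (log2 difference from mono-culture 1.21, SE 0.09, adjusted p = 2.50e-10).

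Calls among cell cycle genes were mostly higher with both controls. Of 47 tested, 16 (34%) were higher and 2 (4.26%) lower (median 0.14), beside 10.6% and 9.18% of all genes, and against MG63 13 were higher and 1 lower (0.15), beside 8.77% and 8.09%. With library size as the only scaling the first split was 11 and 5 (8.21% and 12.2% of all genes), and without DU145 MG63 replicate 2 it was 23 and 5 (17.1% and 14.5%). It was 10 and 0 without RANKL replicate 1, 7 and 1 without RANKL replicate 2, 10 and 1 without mono-culture replicate 3, 11 and 1 without mono-culture replicate 1 and 14 and 1 without mono-culture replicate 2. CLSPN, an adaptor of the replication checkpoint, was at 28.2 to 30.2 TPM without and 38.1 and 42.5 TPM with RANKL (log2 difference 0.51, adjusted p = 4.02e-06). CDKN1B, the CDK inhibitor p27, rose by 0.54 but did not pass the test against MG63. Hypoxia genes (14 tested, 3 lower, 0 higher), heat shock genes (13 tested, 4 higher, 2 lower), NRF2 targets (17 tested, 3 and 3), interferon-stimulated genes (9 tested, 2 higher, 0 lower) and respiratory chain genes (51 tested, 4 and 4) had medians between -0.09 and 0.17. Against the same shares of all genes, respiratory genes had 7.84% in each direction, and ribosomal genes 6.25% higher and 12.5% lower. Ribosomal protein genes had 3 of 48 higher and 6 lower, or 3 and 13 with library size as the only scaling, and 5 replication-dependent histone genes had 2 higher. Without RANKL replicate 2, heat shock genes changed to 2 higher and 1 lower, NRF2 targets to 1 higher and ribosomal genes to 2 lower, and without RANKL replicate 1, NRF2 targets changed to 1 lower and respiratory genes to 1 higher. Interferon-stimulated genes and histone genes had 1 higher each when RANKL replicate 1 or RANKL replicate 2 was left out. Without DU145 MG63 replicate 2, respiratory genes had 18 higher and 12 lower, ribosomal genes 6 and 18, NRF2 targets 6 and 4 and heat shock genes 4 and 4, beside the 17.1% and 14.5% of all genes in that fit.

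More androgen targets were called lower than higher. Of 31 androgen genes tested 3 (9.68%) were higher and 10 (32.3%) lower (median -0.03), beside 10.6% and 9.18% of all genes, with 6 lower without RANKL replicate 2 and 5 higher without DU145 MG63 replicate 2, where 17.1% of all genes were higher. SLC45A3, the prostate membrane protein prostein, was at 50.7, 61.7 and 53.6 TPM without and 20.6 and 16.5 TPM with RANKL (log2 difference -1.54, adjusted p = 1.65e-08), and at 21.7 and 22.6 TPM with MG63. STEAP1, a membrane protein of prostate epithelium, was at 291, 302 and 324 TPM, then 226 and 223 TPM with RANKL (log2 difference -0.40, adjusted p = 3.06e-06) and 225 and 221 TPM with MG63. KLK3, encoding prostate-specific antigen, was higher than in mono-culture (52.4, 60.5 and 57.5 TPM against 92.4 and 101 TPM, log2 difference 0.81) while with MG63 it stood at 103 and 106 TPM (log2 difference from these -0.17, adjusted p = 0.255).

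Of 14 epithelial genes tested 7 were higher and none lower than in mono-culture (median 0.33), and of 4 mesenchymal genes tested 1 was higher and 2 were lower (-0.38), beside 10.6% and 9.18% of all genes. The lower ones were SNAI2 and VIM, encoding vimentin (log2 difference -0.82). Against MG63, 3 of these 18 genes were higher and 2 lower (median -0.10), beside 8.77% and 8.09% of all genes, and VIM did not pass the test. CLDN4, a tight junction protein, was at 48.0, 52.7 and 53.2 TPM, then 101 and 108 TPM with RANKL and 110 and 110 TPM with MG63, and FN1, fibronectin, the mesenchymal gene that was higher, followed the same pattern (18.9 to 23.3, 34.8 and 40.6, and 47.4 and 41.6 TPM). Only 7 of 30 listed osteolytic and osteoblastic factors were tested, and 2 (28.6%) were called in each direction, beside the same shares of all genes. Of these DKK1 and TGFB1, the growth factor TGF-beta 1 (log2 difference 0.50, adjusted p = 0.0499), were higher, and IGF1, a growth factor stored in bone matrix (-1.27), and VEGFA, the angiogenic factor (-0.50), were lower. Neither IGF1 nor VEGFA passed the test against MG63. The TGFB1 call was lost in each fit that left out 1 of the 5 libraries. Of 11 bone matrix and osteomimicry genes 1 was tested, and it was not called.

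The difference between RANKL and mono-culture in 22Rv1 was set against that of the other lines. The test took the 22Rv1 effect minus the mean effect in DU145, C4-2 and C4-2B, each from 3 mono-cultures and 2 RANKL samples. At an adjusted p under 0.05 and a difference over 1 on the log2 scale, 125 genes (1.07%) were higher and 99 (0.847%) lower in 22Rv1 than in the mean of the others. The difference passed the test for PRSS23 (3.02, adjusted p = 6.87e-09), GATA3 (2.85, with at most 0.555 TPM in any mono-culture or RANKL library of the other lines), SLC2A1 (1.70), GAB2 (1.59), SCD (1.54), CA13 (-1.99), SNAI2 (-2.15) and NFKB2 (-0.67). PRSS23 was already at 227 to 248 TPM in DU145 without RANKL and at 193 and 199 TPM with it. Of 26 cholesterol genes 14 had a higher effect in 22Rv1 and none a lower one, beside 8.6% and 6.93% of all genes at the same adjusted p. The cholesterol list had 18 genes higher and 2 lower with RANKL in DU145 (16.3% and 17.3% of all genes), 2 and 1 in C4-2 (9.94% and 9.74%), and 0 and 1 in C4-2B (7.17% and 8.04%).

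**Figure D5:**
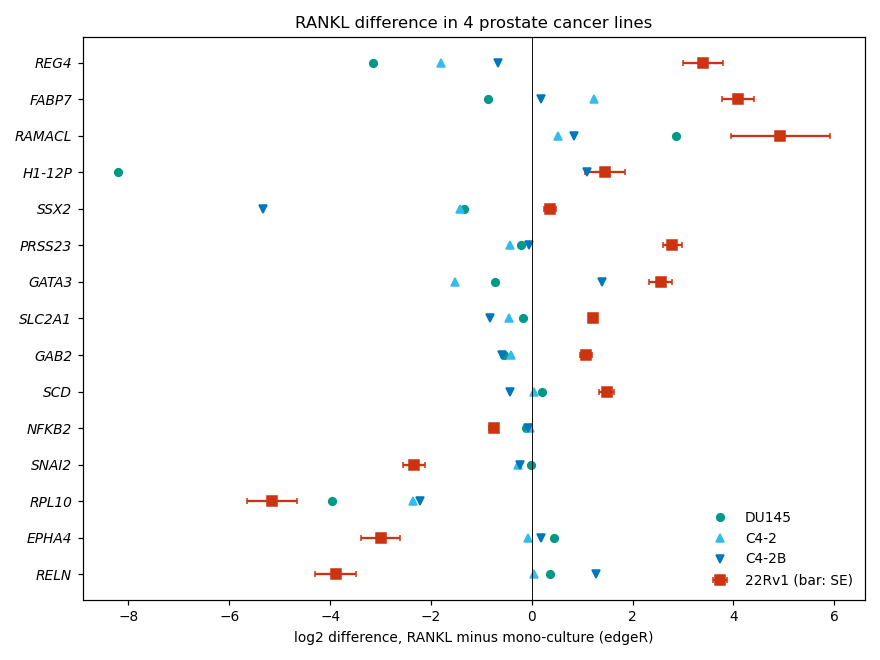
Log2 difference of RANKL minus mono-culture in 22Rv1 (red squares, bars are SE) and in DU145, C4-2 and C4-2B (circles and triangles) for genes with the largest tested difference between lines and for GATA3, PRSS23, SLC2A1, SCD, GAB2 and NFKB2. PRSS23 lies at 2.79 in 22Rv1 and between -0.43 and -0.06 in the other lines, and H1-12P lies far left in DU145, where both RANKL libraries are at 0 and the fitted value is not a bound, and near 22Rv1 (1.45) in C4-2 and C4-2B.

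FGF23 was also higher with RANKL in the other lines. It had log2 differences of 2.79 in DU145, 3.46 in C4-2 and 3.26 in C4-2B beside 2.67 in 22Rv1, and the difference from their mean, -0.50, did not pass the test (adjusted p = 0.224). DKK1 had 0.45 in DU145, and no fold is given for C4-2 and C4-2B, whose mono-culture and RANKL libraries held 0 to 3.02 counts of it. For RPL10 all 4 lines fell, by 5.15 in 22Rv1, 3.96 in DU145, 2.35 in C4-2 and 2.21 in C4-2B on the log2 scale. The other lines carry the same contrast in depth between mono-culture and RANKL, and its part in these values was not tested.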

How the data were processed

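Strand-specific poly(A) libraries of 36 samples were sequenced on an MGI instrument. The submitters' processing notes name FastQC, kallisto and hg19. Per its methods, the study used kallisto 0.46.0 and tximport 1.18.0 in R 3.6.3. The deposited table holds the authors' estimated counts in their scaled-TPM form: values are per transcript length, so a value scaled to a library total of 1000000 is a TPM. GENCODE 29 lengths fitted 95.4% of transcripts. Of 161149 lines, 159837 were distinct transcripts, which were summed over 27852 symbols. Transcripts without a symbol (0.692 to 0.764% of counts in the 5 libraries) stayed out of sums and tests.

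Values were rounded and fitted with edgeR 4.0.16 (R 4.3.3, TMM scaling, quasi-likelihood, Benjamini-Hochberg adjustment) over all 36 samples and 16 groups, keeping genes with at least 100 counts in 1 or more of the 5 libraries. The difference between lines was a contrast in the same fit. The script was first tested on simulated data. Alternatives, 10 planned (DESeq2 1.42.0 and leaving out each of the 5 libraries among them) and 2 added after the data were seen (recovered reads, and the fit without DU145 MG63 replicate 2), were run. For recovered reads, 71.9 to 76.5% of values of single-transcript genes fell within 0.05 of a whole read. No sample was dropped or imputed, and replicates differed by more than sampling noise.

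Genes were named by a rule: past adjusted p under 0.05 and 2-fold, groups not overlapping, a mean of at least 10 TPM in the higher group, then the 12 largest changes each way, the 5 largest differences from the other lines each way, the receptor, ligand and decoy, and up to 4 members of each of 27 lists by p, or the receptors, rate-limiting enzymes and transcription factors that define a list. MAP2K7, TAB2, TRAF6, NFKBIA, SLC3A2, SLC7A1 and VIM were added outside the rule, and 6 genes, picked by it or by their list, are not reported here. Members and lists were chosen with earlier results of these data known. Promoter windows are from RefSeq.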

Additional observations from a re-analysis of the deposited data

Results flagged for a closer look

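The difference between RANKL and mono-culture in 22Rv1 departed from its mean in DU145, C4-2 and C4-2B for 125 genes in the higher and 99 in the lower direction. The difference itself was tested, at an adjusted p under 0.05 (Benjamini-Hochberg, from the quasi-likelihood test of edgeR) and over 1 on the log2 scale. Mono-cultures were deeper than RANKL libraries in every line, so depth cannot be told apart from RANKL here. The genes of largest difference that also changed in 22Rv1 were REG4 (5.27), FABP7 (3.91), RAMACL (3.52), H1-12P (3.32) and SSX2 (3.06) in the higher direction, and RELN (-4.45), EPHA4 (-3.18), RPL10 (-2.31) and SNAI2 (-2.15) in the lower. The values for REG4 and H1-12P give no exact size, as set out below. RAMACL, RELN and RPL10 also moved the same way in the MG63 co-cultures, which had no added RANKL.

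Part of these differences rested on genes that the other lines barely expressed. REG4 was at most at 1.1 TPM, FABP7 at 0.678 TPM and RELN at 0.466 TPM in any mono-culture or RANKL library of the other lines. REG4 and H1-12P were at 0 in both DU145 RANKL libraries, and DU145 mono-cultures held at most 2.37 counts of REG4, so their differences include fitted values that depend on the prior count and give no exact size. EPHA4 was at 0.313 to 2.95 TPM there, and SNAI2 at 2.44 to 7.24 TPM. SSX2, a cancer-testis antigen with near-identical copies, went from 79.1, 88.6 and 73.1 TPM to 100 and 99.5 TPM in 22Rv1 and was at 13.6 to 16.8 TPM without and 0.355 and 0.384 TPM with RANKL in C4-2B. H1-12P, a histone pseudogene, was at 3.98 to 6.70 TPM and then 10.6 and 18.9 TPM in 22Rv1, and it went the same way in C4-2 (5.61 to 8.90 TPM without, 17.2 and 19.1 TPM with RANKL) and C4-2B (7.47 to 11 TPM, then 16.1 and 21.9 TPM), so that only DU145 differed in direction. In 22Rv1 itself the change of H1-12P did not pass the test without RANKL replicate 2 (0.284) or mono-culture replicate 1, and that of SSX2 not without RANKL replicate 1 or 2 (0.137 and 0.105) or mono-culture replicate 1 or 3. The difference for RAMACL had an adjusted p of 0.0297 and did not pass the test without mono-culture replicate 1 (0.0924), mono-culture replicate 3 (0.111) or RANKL replicate 2 (0.221), that for H1-12P not without RANKL replicate 2 (0.141), and that for RPL10 not without RANKL replicate 1 (0.0662).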

How the results depend on the processing

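Counts of genes depended on the filter and on which libraries set the spread. With no minimum count, 210 genes rose and 130 fell by at least 2-fold, and 236 had a higher effect than in the other lines. With the minimum applied after scaling to the smallest library, 43 fell and 56 had a lower effect. At adjusted p alone, fitting the 20 mono-cultures gave 2007 higher and 1836 lower, and leaving DU145 MG63 replicate 2 out of the fit gave 2001 and 1698. Leaving out 1 of the 5 libraries gave 87 to 110 genes higher and 74 to 84 lower at 2-fold, 626 to 1027 and 505 to 890 at adjusted p alone, and 100 to 128 and 87 to 98 for the difference between lines.

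Replicate numbers are shared by title only: deviations of samples with the same number correlated at 0.0807 and 0.0581 in 22Rv1, and a fit with the replicate number as a block gave 822 higher and 663 lower. Under the block GCSHP5 (adjusted p = 0.113), AKT1 (0.116), TGFB1 (0.17), SLC7A1 (0.159), ATF4 (0.142), SSX2 (0.139) and the difference between lines of RAMACL (0.109) did not pass the test, and the block ended no other call of a RANKL effect in 22Rv1 named here. Among differences between lines it was run for those of largest size only.

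With the MG63 co-cultures as the control, 124 genes were lower by 2-fold. The log2 difference turned in sign for FGF23 (-0.31), RPL10 (0.25), MAPK8 (0.0898), AKT1 (-0.0641), KLK3 (-0.17), ASNS (0.37), MTHFD2 (0.19), PSAT1 (0.24), MT1X (0.66), HLA-E (-0.12), TGFB1 (-0.35), CLDN4 (-0.14), FN1 (-0.30), SLC3A2 (0.50), SLC7A1 (0.43) and ATF4 (0.66). RAMACL, NDUFA6, GCSHP5, RELN, H1-12P, TNIP1, SLC45A3, STEAP1, VEGFA, CDKN1B, IGF1, VIM, TAB2 and MAP2K7 kept their sign but did not pass the test against MG63 (adjusted p 0.0712 to 0.992). TRAF6 turned without RANKL replicate 2 (-0.0349). By list, with as many genes tested as against mono-culture and beside 8.77% higher and 8.09% lower of all genes, those higher and lower against MG63 were 1 and 1 (RANK pathway), 2 and 3 (NF-kB), 6 and 3 (immediate early), 6 and 8 (androgen), 1 and 3 (glycolysis), 0 and 1 (hypoxia), 13 and 1 (ATF4), 18 and 0 (unfolded protein), 0 and 6 (heat shock), 1 and 3 (NRF2), 3 and 1 (metallothioneins), 13 and 1 (cell cycle), 1 and 1 (p53), 1 and 0 (MHC class I), 0 and 12 (of 51 respiratory chain genes), 0 and 14 (of 48 ribosomal genes), 1 and 1 (bone factors), 3 and 2 (epithelial), 1 and 0 (histones), 2 and 3 (22Rv1 markers) and 1 and 0 (DU145 markers, from 1 and 1). With library size as the only scaling, 1 bone factor was higher, and 1 glycolysis, 5 cell cycle and 13 ribosomal genes were lower, beside 8.21% higher and 12.2% lower of all genes. The cause of these changes was not tested, and neither was the part of depth in them at any level of TPM.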
